A study of Mus musculus with 384 samples.

Results

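The 7 genes described here encode the dopamine D2 receptor (*Drd2*), both subunits of the GABA-B receptor (*Gabbr1* and *Gabbr2*), and the subunits GIRK1 to GIRK4 of the G protein-gated inward rectifier potassium channels (*Kcnj3*, *Kcnj6*, *Kcnj9*, and *Kcnj5*, in that order). They were taken by symbol as 7 of 41267 gene rows of the count table, because they code for the receptors and channels that inhibit dopamine (DA) neurons from within their own cell bodies and dendrites. Their levels were examined in the 209 of 384 single cells with at least 500000 reads counted on genes, across mice, between cells with at least 10 reads of *Aldh1a7* and cells with fewer, against the levels of *Slc6a3* and *Th*, and between the sexes.

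DA neurons release dopamine from their dendrites as well as their axon terminals, and the D2 receptors on the same cells, the autoreceptors, respond to it. D2 and GABA-B receptors both act through G proteins of the Gi/o type, whose beta and gamma subunits, once set free, open GIRK channels; potassium then leaves the cell and firing slows. GIRK channels are tetramers, and GIRK2, the product of *Kcnj6*, can form channels alone or with GIRK3 (*Kcnj9*), while GIRK1 (*Kcnj3*) needs a partner to reach the membrane. A working GABA-B receptor needs both of its subunits: GABBR1 binds GABA and GABBR2 engages the G protein.

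The cells came from the dissociated midbrain, hypothalamus included, of 8 DAT-IRES-Cre;Ai9 mice on C57BL6/J, 5 labeled male and 3 labeled female, aged 24 to 36 d by their labels. The text of the series record counts 6 male and 2 female mice instead and gives a narrower age range; the labels of the cells were used, so the comparison of the sexes rests on labels that the record contradicts for at least 1 mouse. In these mice Cre made from the *Slc6a3* (dopamine transporter) locus switches on a tdTomato reporter, so any cell in which the locus was ever active can be red, whatever its present level of *Slc6a3*. All mice carried both alleles and none was treated. Red, propidium iodide-negative cells were sorted and captured on a Fluidigm C1 chip, 1 mouse per run, and read as full-length polyadenylated RNA without molecular identifiers. The males were 24, 24, 27, 27, and 28 d old and the females 25, 33, and 36 d, so sex and age cannot be fully told apart, and neither can a mouse and its C1 run.

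The 209 cells held 500672 to 1544824 counted reads (median 780484), with 12 to 45 cells per mouse, and reads of 3189 to 10740 genes each. The label "dopamine neuron" was checked against 9 identity genes: *Ddc* reached 10 reads in 206 cells, *Slc6a3* and *Slc18a2* in 205 each, *Th* in 198, *Nr4a2* in 197, and *En1* in 178. The transcription factor genes *Foxa2*, *Lmx1b*, and *Pitx3* did so in fewer cells, 77, 44, and 32. Both *Th* and *Slc6a3* reached 10 reads in 197 cells; the other 12 cells were all *Aldh1a7-*. Of other cell types, *Gad2*, a GABA-synthesizing enzyme, reached 10 reads in 42 cells, *Mbp*, a myelin gene, in 56, and *Cx3cr1*, a microglial receptor, in 0. For a count of 0 the limit was set at 3 of 209 cells, which allows a share of up to 1.44%. Intervals and limits of this kind cover counting error only, and p-values measure the spread between mice.

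The receptor genes *Drd2* and *Gabbr2* were the best detected of the 7. *Drd2* (chromosome 9, 49340360 to 49408177 on GRCm38) reached 10 reads in 145 of 209 cells, or 69.4% (95% exact binomial interval 62.6 to 75.6%). Its level in the summed cells of each mouse was lowest at 71.6 CPM (counts-per-million), had a median of 87.8 CPM, and was highest at 150 CPM. Mice 2 and 3 stood highest, at 150 and 149 CPM, and the other 6 lay between 71.6 and 93.9 CPM. All 145 of these cells also had at least 10 reads of *Th* and of *Slc6a3*. The 40 cells in which no read of *Drd2* was counted were unevenly placed: 4 were among the 74 *Aldh1a7+* cells and 36 among the 135 *Aldh1a7-* cells.

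*Gabbr2* (chromosome 4, 46662318 to 46991714) reached 10 reads in 118 cells, 56.5% (49.4 to 63.3%). Over mice its level ran from 24.1 CPM through a median of 41.8 CPM to 68.6 CPM, with mouse 7 highest and mouse 8 lowest. No such level can be given for its partner *Gabbr1* (chromosome 17, 37045966 to 37074305). Only 2 reads were listed for *Gabbr1* in the 209 cells, and 0 cells reached 10 reads. The symbol *Gabbr1* is listed 4 times in the annotation of the count table, and the other 3 rows held 0, 1, and 2 reads. Reads aligned to several genes were not counted by the authors, so the count of *Gabbr1* is given as listed and not as a measure of its expression.

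How much such repeated listing goes with low counts can be read from the other protein-coding genes. Of 19887 symbols listed once, 54.2% reached 10 reads in 10 or more cells, against 19.9% of 684 listed 2 times and 1.73% of 173 listed 4 or more times. *Ddx39b*, an RNA helicase gene that most cells use, is listed 4 times and held 0 reads on each of its rows. *Tubb5*, a tubulin gene listed 3 times, held 7134 reads on its plain row. The part of the listing in the counts of single genes was not tested.

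Among the channel genes, *Kcnj9* (GIRK3; chromosome 1, 172320508 to 172329322) reached 10 reads in 60 cells, 28.7% (22.7 to 35.4%). Its levels over mice ran from 12.0 to 45.1 CPM with a median of 20.2 CPM. *Kcnj3* (GIRK1; chromosome 2, 55411798 to 55598145) reached 10 reads in 46 cells, 22.0% (16.6 to 28.2%), and ran from 1.61 to 29.2 CPM with a median of 11.7 CPM. Both were carried by few cells. The 21 cells highest in *Kcnj3* held 75.1% of its summed CPM, and the 21 highest in *Kcnj9* held 65.3%, against 33.9% for *Drd2* and 44.0% for *Gabbr2*.

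*Kcnj5* (GIRK4, best known from the heart; chromosome 9, 32314706 to 32344380) is listed once and had 7 reads, in 2 cells. With 0 of 209 cells at 10 reads, a share of up to 1.44% remains possible at this depth.

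*Kcnj6* (GIRK2; chromosome 16, 94744980 to 94997696) is listed 2 times in the annotation, and its counts need the same care as those of *Gabbr1*. The row with the plain symbol, which is the one used here, held 1021 reads and reached 10 reads in 24 cells, 11.5% (7.5 to 16.6%). The second row reached 10 reads in 17 cells. With both rows summed, 1534 reads were counted and 47 cells reached 10. The mice differed in which row took the reads. In mouse 5, 620 reads fell on the first row and 2 on the second, and in mouse 1, 51 and 0; in mice 4, 6, 7, and 8 the second row held more, for example 22 against 107 reads in mouse 7. The summed level ran from 2.19 CPM in mouse 8 to 19.5 CPM in mouse 5, while the first row alone ran from 0.365 to 19.4 CPM in the same 2 mice. Differences between mice in the *Kcnj6* values below therefore include differences in the row that took the reads.

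**Figure D1:**
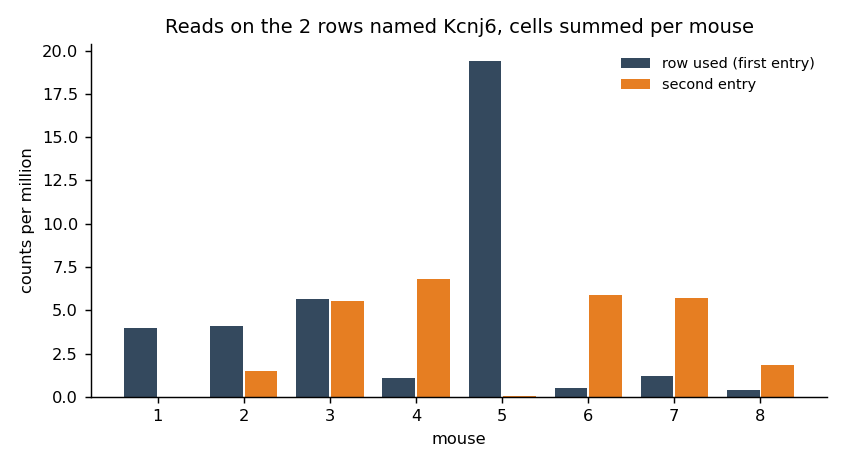
Level in CPM on the 2 rows of the count table that carry the symbol *Kcnj6*, for the summed cells of each of 8 mice; the left bar is the row used in the comparisons. Nearly all reads of mouse 5 lie on the first row (19.4 CPM against 0.0626 CPM), and more lie on the second row in mice 4, 6, 7, and 8.

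Levels of different genes were compared per kilobase of annotated exon. *Drd2* was the highest at 38.7 ± 12.7 CPM per kilobase (SD, n = 8 mice), followed by *Gabbr2* at 6.29 ± 2.16, *Kcnj9* at 5.62 ± 2.70, *Kcnj3* at 2.66 ± 1.84, and *Kcnj6*, as listed, at 0.593 ± 0.829. Mouse 5 set much of the last value: without it the mean of *Kcnj6* was 2.40 CPM in place of 4.53 CPM. *Gabbr2* and *Kcnj9*, next to each other in this order, differed by less than the spread of either between mice. *Drd2* stood apart from all others of the 7 and was itself far below *Slc6a3* (818 ± 243 CPM per kilobase) and *Th* (2581 ± 660).

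**Figure D2:**
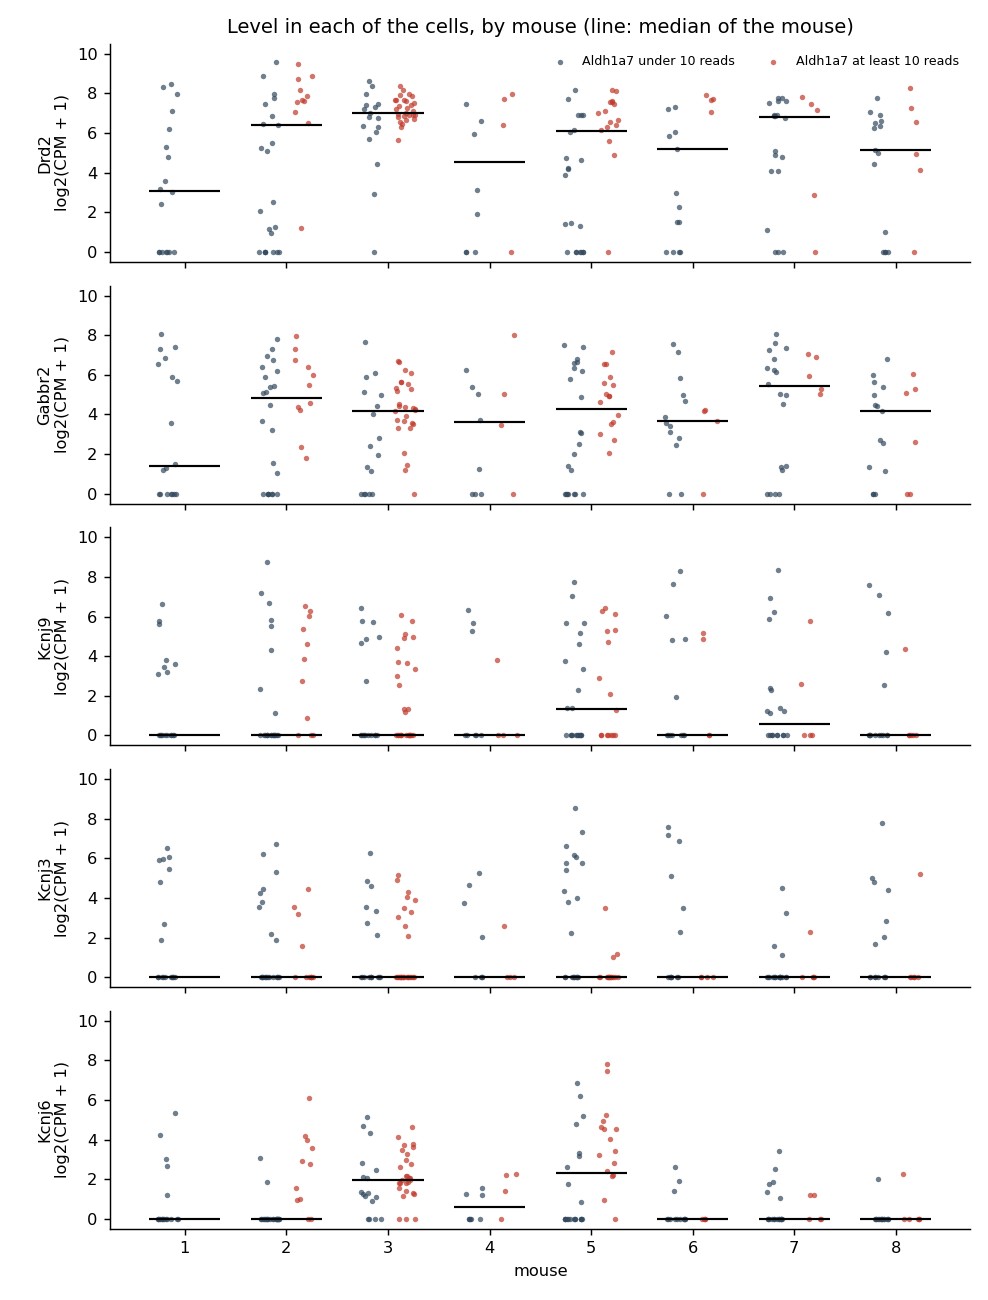
Level of 5 genes, as log2(CPM + 1), in each of 209 cells by mouse; red points are cells with at least 10 reads of *Aldh1a7*, blue points the others, and each black line is the median of a mouse. Nearly all red points lie high for *Drd2*, while most cells of either color sit at 0 for *Kcnj3*; mouse 1 has no red points.

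*Aldh1a7*, a close relative of the retinaldehyde dehydrogenase gene *Aldh1a1*, was used to split the cells; reads that fit both relatives could have been lost or shared, so its counts are uncertain to that extent. It reached 10 reads in 74 cells (*Aldh1a7+*, 35.4%) and not in 135 (*Aldh1a7-*). The counts of each class were summed per mouse and compared in 7 mice that had 3 or more cells of both, 74 *Aldh1a7+* and 117 *Aldh1a7-* cells, since mouse 1 had 0 of 18 cells at 10 reads. *Aldh1a1* reached 4190 to 7808 CPM in the *Aldh1a7+* sums and 1.69 to 1803 CPM in the *Aldh1a7-* sums. *Slc6a3* was higher in the *Aldh1a7+* class, by 1.27 ± 0.24 on the log2 scale (edgeR quasi-likelihood test, adjusted p = 0.0334), and *Th* differed by 0.62 ± 0.22 (edgeR adjusted p = 0.289).

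In this comparison *Drd2* was the receptor gene with the largest difference. In the *Aldh1a7+* sums its levels were 264 (mouse 2), 161 (mouse 3), 141 (mouse 4), 134 (mouse 5), 198 (mouse 6), 110 (mouse 7), and 107 CPM (mouse 8). In the *Aldh1a7-* sums of the same mice, in the same order, they were 91.0, 131, 44.4, 51.0, 44.6, 89.6, and 56.3 CPM. *Drd2* was thus higher in the *Aldh1a7+* cells of all 7 mice, a direction that 1.71% of the 12782 genes tested shared in full, though the 2 sets of sums overlapped through mouse 3. The means were 159 ± 55.6 and 72.5 ± 32.4 CPM (SD, n = 7), and the fitted difference was 1.27 ± 0.30 on the log2 scale (SE). It did not pass the threshold over all genes (edgeR adjusted p = 0.0831, unadjusted p = 0.000552), and with the mouse as a block it did not either (1.29 ± 0.26, edgeR adjusted p = 0.0755).

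Over all genes, edgeR called 52 of 12782, or 0.407%, and 0 of the 5 genes of the 7 that could be tested were among them. At an unadjusted p under 0.05, 2 of the 5 (*Drd2* and *Kcnj3*) passed, beside 11.0% of all genes. The other tools called more: DESeq2 called 2.64% of genes, among them *Drd2* (adjusted p = 0.00458) and *Kcnj3* (adjusted p = 0.0223), and limma, on the mean of log2(CPM + 1) over cells, 1.44%, among them *Drd2* (adjusted p = 0.0349). The edgeR call for *Drd2* also turned on single libraries and cells: without mouse 3 the difference was 1.48 (adjusted p = 0.0357), and with cells from 100000 reads it was 1.34 (adjusted p = 0.0260). Limited to cells with 10 reads of both *Th* and *Slc6a3*, it was 1.06 ± 0.29 (adjusted p = 0.204).

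The share of cells with at least 10 reads of *Drd2* was 91.9% (83.2 to 97.0%, 68 of 74) in the *Aldh1a7+* class and 57.0% (48.2 to 65.5%, 77 of 135) in the *Aldh1a7-* class. After each cell was thinned to 500000 reads the shares were 90.5 and 54.1%. Among the cells with *Th* and *Slc6a3*, the *Aldh1a7-* share was 62.6% (53.4 to 71.2%, 77 of 123). These intervals treat cells as separate draws, and the cells of a mouse share their run. The *Aldh1a7+* cells had a median of 791398 reads and 9779 genes with a read, and the *Aldh1a7-* cells 758089 reads and 8663 genes.

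*Kcnj3* went the other way. Its levels in the *Aldh1a7+* sums of mice 2 to 8, in order, were 3.65, 4.94, 1.15, 0.784, 0, 0.762, and 7.17 CPM. In the *Aldh1a7-* sums they were 12.6, 9.17, 8.47, 44.0, 39.6, 1.83, and 16.7 CPM. *Kcnj3* was lower in the *Aldh1a7+* cells of all 7 mice, as were 5.01% of the genes tested, and the sets overlapped through mouse 7, which was low in both. The fitted difference was -2.64 ± 0.84 (edgeR adjusted p = 0.222), while DESeq2 gave -2.66, limma -1.20, and a cutoff of 1 read of *Aldh1a7* -1.52. At least 10 reads were counted in 8 of 74 *Aldh1a7+* cells, 10.8% (4.78 to 20.2%), and in 38 of 135 *Aldh1a7-* cells, 28.1% (20.8 to 36.5%).

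*Kcnj9*, the third channel subunit, was lower in the *Aldh1a7+* cells of 6 of 7 mice, with mouse 5 the exception, and 18.4% of the genes tested were lower in at least 6. Its *Aldh1a7+* sums ran from 2.27 through a median of 11.7 to 27.0 CPM and its *Aldh1a7-* sums from 14.7 through 25.5 to 54.1 CPM. The difference was -0.98 ± 0.52 (edgeR adjusted p = 0.513). The share of cells at 10 reads was nearly equal, 29.7% (22 of 74) against 28.1% (38 of 135).

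*Kcnj6*, as listed, ran from 0 through a median of 2.31 to 28.3 CPM in the *Aldh1a7+* sums and from 0.223 through 0.652 to 11.2 CPM in the *Aldh1a7-* sums, and was higher in 4 of 7 mice. The difference was 1.37 ± 1.09 (edgeR adjusted p = 0.707), and with both of its rows summed 1.25 ± 0.68 (edgeR adjusted p = 0.523). *Gabbr2*, the GABA-B subunit that could be measured, ran from 12.3 through 41.6 to 87.7 CPM against 20.8 through 40.1 to 67.4 CPM. It was higher in 4 of 7 mice and lower in 3, and the difference was 0.48 ± 0.40 (edgeR adjusted p = 0.727). The share of cells at 10 reads of *Gabbr2* was 73.0% (61.4 to 82.6%, 54 of 74) in the *Aldh1a7+* and 47.4% (38.8 to 56.2%, 64 of 135) in the *Aldh1a7-* class, 59.5 and 42.2% after thinning. The *Aldh1a7+* cells also had reads of more genes (median 9779 against 8663), and *Gabbr2* correlated at 0.27 with the number of genes detected. The part of this in the shares was not tested. For *Kcnj6* the shares were 18.9% (14 of 74) and 7.41% (10 of 135), and 12.2 and 6.67% after thinning. *Kcnj5* and *Gabbr1* did not pass the filter on low counts in any of the comparisons.

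**Figure D3:**
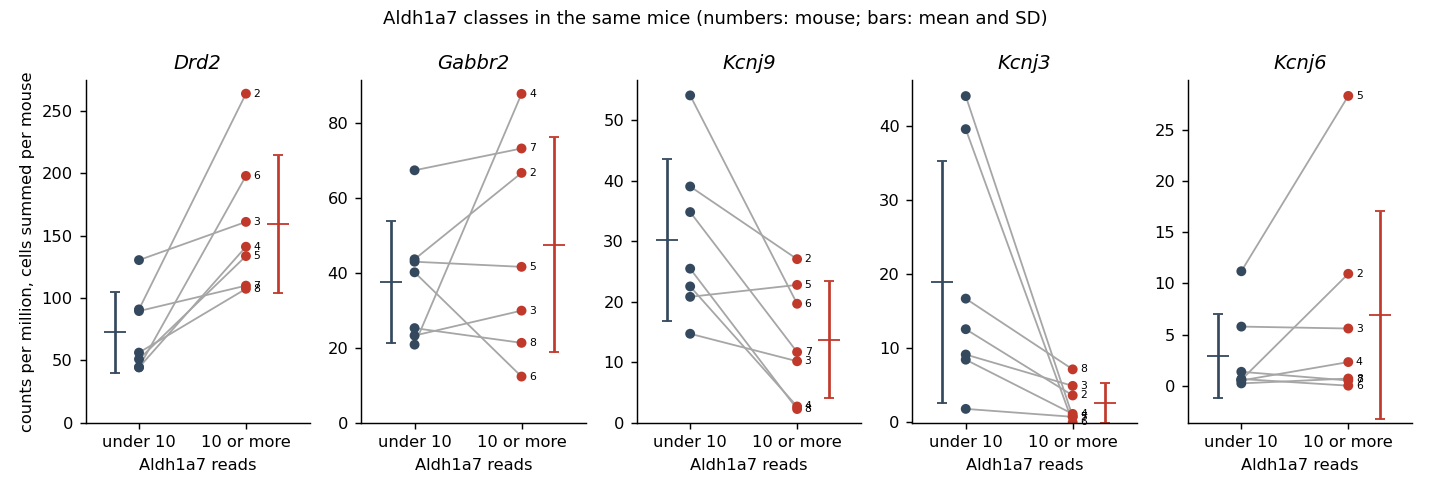
Level in CPM of 5 genes in the summed *Aldh1a7-* cells (under 10 reads) and *Aldh1a7+* cells (10 or more reads) of 7 mice; lines join the classes of 1 mouse, numbers name the mouse, and bars give the mean and SD. All lines slope upward for *Drd2* (means 72.5 and 159 CPM) and all downward for *Kcnj3* (18.9 and 2.64 CPM); lines of both slopes are present for *Gabbr2*, *Kcnj9*, and *Kcnj6*.

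Since GIRK2 and GIRK3 can share a channel, the part of *Kcnj9* in the reads of *Kcnj6* and *Kcnj9* together was also compared; as a ratio within a sum it does not depend on library scaling. It was 71.2, 64.5, 53.8, 44.6, 100, 95.8, and 76.5% in the *Aldh1a7+* sums of mice 2 to 8 and 98.6, 71.8, 97.8, 65.0, 98.8, 96.2, and 99.1% in the *Aldh1a7-* sums. The part was lower in the *Aldh1a7+* cells of 6 of 7 mice, by a mean of 17.3 percentage points (72.4 ± 20.5 against 89.6 ± 14.6%, SD; exact two-sided sign-flip permutation test over mice, p = 0.0469, with 0.0156 the smallest p that 7 mice allow). With both rows of *Kcnj6* summed it was 50.1 ± 24.8 against 82.2 ± 14.1% (exact sign-flip permutation p = 0.0312). The call was lost without any 1 of mice 2, 3, 4, 5, 7, or 8 (exact permutation p = 0.0625 to 0.0938, where 6 mice allow 0.0312 at the smallest), and some sums held few reads of the pair, 7 and 6 in the *Aldh1a7+* cells of mouse 4. The same ratio for *Gabbr2* and *Gabbr1* was void, because *Gabbr1* had 2 reads.

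Marker genes of other cells were summed per mouse beside these values, and their ranges overlapped between the classes. edgeR called 0 of the 1 GABA neuron gene, 2 oligodendrocyte genes, and 7 dissociation response genes that could be tested (1, 2, and 5 at an unadjusted p under 0.05), DESeq2 called 1, 2, and 3 of them and limma 0, 1, and 2, all lower in the *Aldh1a7+* class, and no astrocyte gene could be tested. The 3 GABA neuron genes ran from 0.787 to 255 CPM (median 2.54) in the *Aldh1a7+* sums and from 2.20 to 1331 CPM (median 332) in the *Aldh1a7-* sums. The 5 oligodendrocyte genes ran from 0 to 50.2 and from 33.9 to 5232 CPM, with *Mog*, listed 4 times, at 0; the 5 astrocyte genes from 0 to 1.11 and from 0 to 61.1 CPM. The 9 genes of the dissociation response ran from 116 to 320 and from 167 to 1603 CPM, with *Hspa1a* and *Hspa1b*, both listed repeatedly, at 0. Their part in the values of *Drd2* and *Kcnj3* was not tested. Of 8 markers of ventral tegmental-type neurons, the sum ran from 599 to 2021 CPM in *Aldh1a7+* and from 1112 to 2892 CPM in *Aldh1a7-* cells. These markers did not all go 1 way. *Grp* (means 117 and 72.7 CPM) and *Neurod6* (56.4 and 26.5 CPM) were higher in the *Aldh1a7+* sums of 5 of 7 mice. *Calb1*, *Cck*, *Slc17a6*, and *Vip* were higher in 0 of 7 mice, *Calb2* in 1, and *Otx2* in 2. The sum of 7 nigral-type markers, which include *Aldh1a7* itself, ran from 5348 to 9599 and from 405 to 2243 CPM. *Aldh1a1*, at 4190 to 7808 CPM, made up most of that sum in *Aldh1a7+* cells.

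The relation to the dopamine transporter was first taken cell by cell. *Drd2* followed *Slc6a3* within every mouse: over the 209 cells the correlation of log2(CPM + 1), centered within mice, was 0.56, and it was 0.43 to 0.71 in the 8 mice taken singly. Its correlation with *Th*, the rate-limiting enzyme of dopamine synthesis, was 0.55 (0.42 to 0.76). The points share their libraries and differ in quality, and *Drd2* itself correlated at 0.36 with the number of genes detected and at 0.09 with log2 of the reads, *Slc6a3* at 0.50 and 0.21, and *Th* at 0.30 and 0.12. For *Gabbr2* the correlations with *Slc6a3* and *Th* were 0.28 and 0.22, for *Kcnj6* 0.27 and 0.22, for *Kcnj9* 0.12 and -0.08, and for *Kcnj3* -0.07 and -0.16. The 4 lower sets are weak relations in sparse counts and are given as values only.

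In steps of *Slc6a3*, with the cells of each mouse divided into 4 bins of like size, *Drd2* was 49.5 ± 57.0 CPM in the lowest bin, 69.0 ± 58.2 in the second, 112 ± 56.7 in the third, and 151 ± 46.5 in the highest (SD, n = 8 mice). At least 10 reads of *Drd2* were counted in 20 of 50, 32 of 53, 40 of 50, and 53 of 56 cells. In steps of *Th* the levels were 29.7 ± 44.9, 75.4 ± 63.5, 127 ± 62.9, and 142 ± 46.6 CPM. *Kcnj3* was 18.6 ± 17.8, 21.5 ± 28.4, 15.3 ± 17.0, and 5.28 ± 4.15 CPM over the bins of *Slc6a3* and 26.7 ± 26.6, 15.5 ± 18.0, 11.1 ± 17.8, and 4.51 ± 4.86 CPM over those of *Th*. The steps of *Drd2* are therefore upward in the means of both splits and those of *Kcnj3* mostly downward, with spreads between mice as large as most of the steps.

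**Figure D4:**
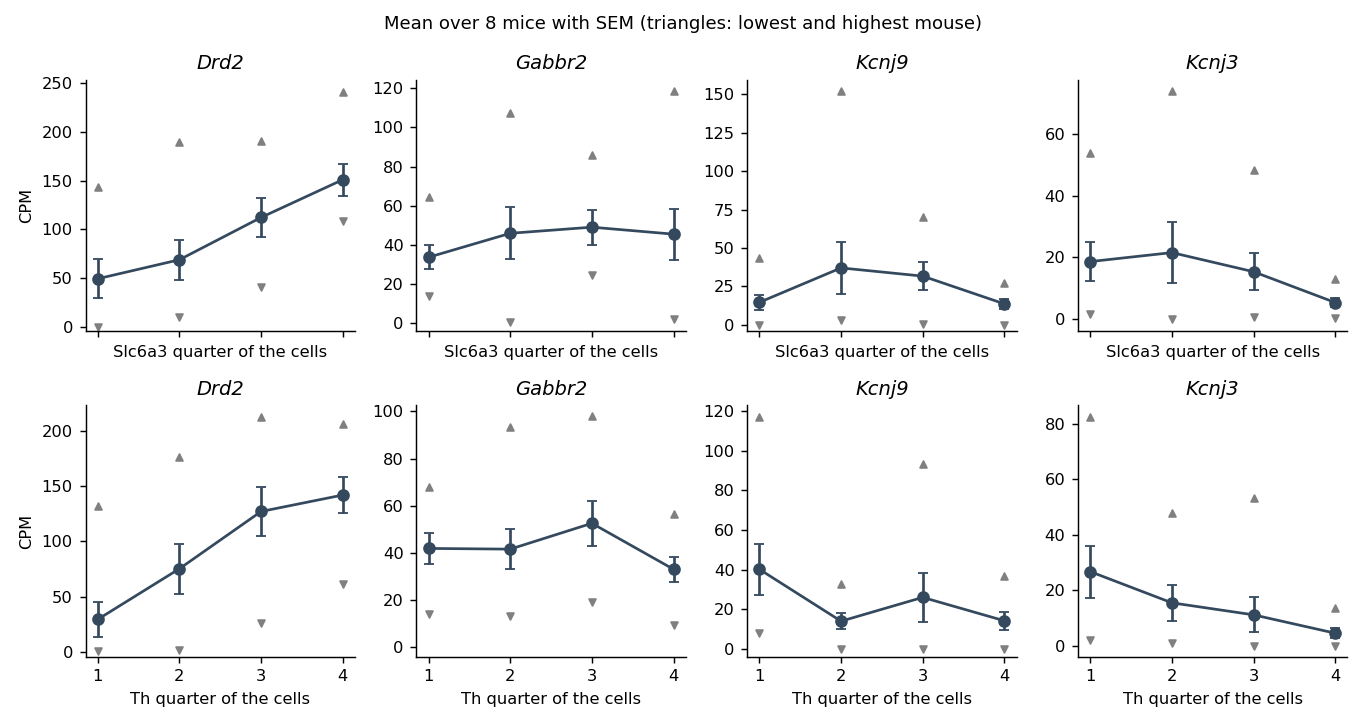
Mean CPM with SEM over 8 mice for 4 genes, in 4 bins of each mouse's cells by *Slc6a3* (top) or *Th* (bottom) from lowest (1) to highest (4); triangles mark the lowest and the highest mouse. *Drd2* goes from 49.5 to 151 CPM by *Slc6a3* and from 29.7 to 142 CPM by *Th*; *Gabbr2* and *Kcnj9* show no steady course.

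With mice as replicates, sums over the cells above the median *Slc6a3* of their own mouse (the upper class) were tested against sums over the rest (the lower class; 103 and 106 cells, 8 mice). *Drd2* was 95.2 through a median of 127 to 217 CPM in the upper and 5.92 through 43.3 to 165 CPM in the lower classes. It was higher in the upper class of 7 of 8 mice, a direction found in at least 7 mice for 6.03% of genes, and the difference was 1.15 ± 0.43 (edgeR adjusted p = 0.442). *Kcnj3* differed by -0.98 ± 0.68 (edgeR adjusted p = 0.704), *Kcnj6* by 0.81 ± 1.00, *Kcnj9* by -0.16 ± 0.46, and *Gabbr2* by 0.03 ± 0.37; the direction was reversed in 5 of 20 alternatives for *Gabbr2* and in 2 of 20 for *Kcnj9*. Of 12453 genes, edgeR called 1, or 0.00803%, and 0 of the 5; at an unadjusted p under 0.05, 8.87% of genes and 1 of the 5 (*Drd2*) passed. DESeq2 and limma called 145 and 1 genes, and edgeR with the mouse as a block 11, with 0 of the 5 among them.

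For the same split by *Th*, *Drd2* was 110 through a median of 131 to 202 CPM in the upper and 8.29 through 44.9 to 156 CPM in the lower class. It was higher in the upper class of 7 of 8 mice, as were 5.42% of genes in at least 7, by 1.40 ± 0.48 (edgeR adjusted p = 0.435). *Kcnj3* differed by -1.41 ± 0.74 (edgeR adjusted p = 0.605) and was lower in the upper class of 6 of 8 mice. *Kcnj9* differed by -0.35 ± 0.54, *Kcnj6* by -0.16 ± 1.05, and *Gabbr2* by 0.13 ± 0.33, with the direction reversed in 1, 4, and 3 of 20 alternatives. edgeR called 0 of 12466 genes (0%), with 8.74% at an unadjusted p under 0.05, 1 of the 5 (*Drd2*) among them; limma called 0 genes, DESeq2 79, and edgeR with the mouse as a block 3, none of them among the 5. Of other cell types, the oligodendrocyte genes ran from 35.4 to 3966 CPM in the lower and from 4.68 to 54.3 CPM in the upper classes by *Slc6a3*, and from 36.6 to 4130 and from 4.86 to 60.5 CPM by *Th*. The astrocyte genes, none of which could be tested, ran from 0 to 1164 and from 0 to 1.40 CPM by *Slc6a3*, and from 0 to 1208 and from 0 to 3.47 CPM by *Th*. The GABA neuron genes ran from 2.39 to 1915 CPM (median 490) and from 2.00 to 581 CPM (median 4.62) by *Slc6a3*, and from 3.01 to 2019 CPM and from 1.72 to 562 CPM by *Th*. These ranges overlapped, and edgeR, DESeq2, and limma called 0 of the GABA neuron and oligodendrocyte genes that could be tested (3 GABA neuron genes by *Slc6a3*, 2 by *Th*, and 2 oligodendrocyte genes in each), of which 1 GABA neuron and 2 oligodendrocyte genes had an unadjusted edgeR p under 0.05 in each split. The dissociation response genes ran from 144 to 6953 CPM (median 733) in the lower and from 127 to 1015 CPM (median 202) in the upper classes by *Slc6a3*, and from 183 to 7271 (median 688) and from 139.7 to 938 CPM (median 346) by *Th*. edgeR and limma called 0 of them, but 6 of 6 by *Slc6a3* and 7 of 7 by *Th* had an unadjusted edgeR p under 0.05, and DESeq2 called *Dusp1*, *Egr1*, and *Fosb* by *Slc6a3* and *Dusp1* and *Junb* by *Th*. The part of these lists in the values of *Drd2* was not tested. Within cells that had 10 reads of both *Th* and *Slc6a3*, the *Drd2* difference was 0.79 ± 0.31 by *Slc6a3* and 0.95 ± 0.42 by *Th*. Over all alternatives it ran from 0.66 (second machine) to 2.46 (limma, on the mean log2 value over cells) by *Slc6a3* and from 0.62 to 2.77 by *Th* in the same settings, with 1.55 and 1.99 under the mouse block and 1.56 and 1.88 without mouse 3, and in none did it pass the threshold (lowest adjusted p = 0.0861 and 0.0843, both from limma).

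Because *Aldh1a7+* cells had more *Slc6a3*, both splits were put in 1 model over 23 sums of at least 3 cells. At like *Slc6a3* class, *Drd2* differed by 1.09 ± 0.36 between the *Aldh1a7* classes (edgeR adjusted p = 0.215) and *Kcnj3* by -2.35 ± 0.81 (edgeR adjusted p = 0.239; DESeq2 adjusted p = 0.0322). *Gabbr2* differed by 0.55 ± 0.45 (edgeR adjusted p = 0.772). At like *Aldh1a7* class, *Drd2* differed by 0.54 ± 0.36 between the *Slc6a3* classes (edgeR adjusted p = 0.935) and *Kcnj3* by -0.12 ± 0.75 (edgeR adjusted p = 0.998), with the direction reversed in 1 and 5 of 22 alternatives. edgeR called 0.357% of 14290 genes for *Aldh1a7* and 0.021% for *Slc6a3*, and 0 of the 5 in both; at an unadjusted p under 0.05, *Drd2* and *Kcnj3* passed for *Aldh1a7*, beside 1494 of the 14290 genes, and 0 of the 5 for *Slc6a3*, beside 930 of them. With the mouse as a block edgeR called 15 and 21 genes, and 0 of the 5. limma called 0 of the 5 in both, and DESeq2 1 (*Kcnj3*) for *Aldh1a7* and 0 for *Slc6a3*. *Drd2* was 167 ± 59.1 CPM in *Aldh1a7+* upper-class cells (7 mice), 93.6 ± 27.5 in *Aldh1a7-* upper-class cells (7 mice), and 58.7 ± 45.9 in *Aldh1a7-* lower-class cells (8 mice). The *Aldh1a7+* lower-class sums had 3 cells or more in mouse 3 only (11 cells, 180 CPM), so the 2 terms were told apart with little overlap. Marker genes were read from this model too. For *Aldh1a7*, edgeR called 1 of 7 dissociation response genes, *Egr1* (-4.27 ± 0.83, adjusted p = 0.0137), and 1 of 8 ventral tegmental-type markers, *Calb1* (-1.91 ± 0.43, adjusted p = 0.0495), lower. It called the nigral-type markers *Lmo3* and *Satb1* higher and 0 of 2 oligodendrocyte genes. Of the dissociation response, tegmental-type, and oligodendrocyte genes, DESeq2 called *Egr1*, *Fosb*, and *Calb1*, and limma *Egr1*, *Calb1*, and *Mbp*. Of the GABA neuron genes, 3 of 3 had an unadjusted edgeR p under 0.05, and DESeq2 called *Gad1* and *Gad2*. For *Slc6a3*, edgeR called 0 of 7 dissociation response, 3 GABA neuron, and 2 oligodendrocyte genes, with 6, 1, and 2 at an unadjusted p under 0.05; limma called 0, and DESeq2 called *Dusp1* among the dissociation response genes. Their part in the values of *Drd2* and *Kcnj3* was not tested.

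**Figure D5:**
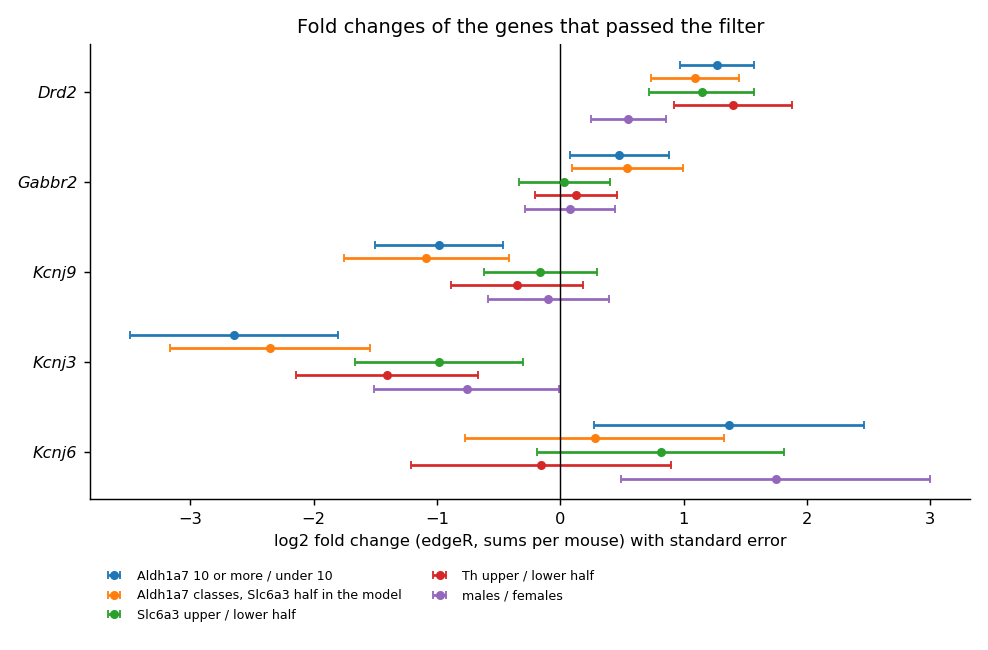
Fitted log2 fold changes with standard errors from edgeR for the 5 genes that passed the filter, one color per comparison. *Drd2* lies to the right of 0 in all 5 and *Kcnj3* to the left; none passed an adjusted p of 0.05 in edgeR.

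Between the sexes, all cells of a mouse were summed. *Drd2* was 71.6, 90.7, 93.9, 149, and 150 CPM in the 5 males and 74.0, 74.6, and 84.8 CPM in the 3 females, which lay within the range of the males. The difference was 0.55 ± 0.31 (edgeR adjusted p = 0.689). *Kcnj3* differed by -0.76 ± 0.75, *Kcnj6* by 1.75 ± 1.26, *Kcnj9* by -0.10 ± 0.49, and *Gabbr2* by 0.08 ± 0.36, and the males and females overlapped for each of them. The direction was reversed in 5 of 17 alternatives for *Kcnj9* and in 3 of 17 for *Gabbr2*. Of 15529 genes edgeR called 5, or 0.0322%, and 0 of the 5 described here, none of which reached an unadjusted p under 0.05; DESeq2 and limma called 190 and 24 genes, and 0 of the 5. On the first C1 machine, which had run all females and 2 males, the *Drd2* difference was 0.66 ± 0.32; the second machine had males only. In 15 tests of whether a class difference depended on sex, over the *Aldh1a7*, *Slc6a3*, and *Th* splits, edgeR called 0 and 2 had an unadjusted p under 0.05, beside 10.3, 7.56, and 8.34% of all genes in these fits. The lowest p was for *Drd2* by *Th* class, where the difference was smaller in males (-2.84 ± 0.62 on the log2 scale, males against females; edgeR adjusted p = 0.332, unadjusted p = 0.000314). *Drd2* was 8.29, 10.9, and 16.6 CPM in the lower *Th* class of the females and 32.8, 57.1, 70.2, 86.8, and 156 CPM in that of the males. These values are given because the p was the lowest of the 15 tests. How many of all genes part the sexes in this class was not counted. In the upper class it was 124, 139, and 156 CPM in the females and 110 to 202 CPM in the males, with overlap. The lower classes of the sexes also differed in *Th* itself, which was 695, 1171, and 1744 CPM in the females and 2016 to 6020 CPM in the males, without overlap; 66.7, 77.8, and 33.3% of the cells in these female classes and 88.2 to 100% of those in the male ones had 10 reads of *Th*. Over all cells of a mouse, the dissociation response genes ran from 447 to 3844 CPM in the females and from 161 to 1144 CPM in the males, the oligodendrocyte genes from 39.4 to 59.3 and from 19.4 to 2070 CPM, and the astrocyte genes from 0 to 554 and from 0.161 to 40.4 CPM, all with overlap. edgeR and limma called 0 of the 7, 3, and 2 of them that could be tested (3, 2, and 1 at an unadjusted edgeR p under 0.05), DESeq2 called *Jun* among the dissociation response genes, and their part in the values by sex was not tested.

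The C1 machines and lanes were also taken alone. *Drd2* differed between the *Aldh1a7* classes by 1.55 ± 0.38 in the 4 mice of the first machine that entered and by 0.83 ± 0.45 in the 3 of the second. In the cells of lane 1 (4 sums) it differed by 1.00 ± 0.37 and in those of lane 2 (10 sums) by 1.5 ± 0.33. All mice but mouse 4 lay in a single lane, so lane and mouse cannot be fully told apart. *Kcnj3* differed by -3.31 ± 1.28 and -2.25 ± 0.96 on the machines and by -1.25 ± 0.76 and -3.40 ± 1.15 in the lanes. The direction of both was the same in each, and 0 of these single-batch values passed the threshold (edgeR adjusted p of 0.138 or more).

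The receptors and channels were also counted together in the same cell. *Drd2* and *Gabbr2* both reached 10 reads in 89 cells, where the product of their shares gives 81.9 cells. *Drd2* and *Kcnj9* did so in 41 cells (product 41.6), *Kcnj3* and *Kcnj9* in 17 (13.2), and *Drd2* and *Kcnj3* in 26 (31.9). Of the 24 cells with 10 reads of *Kcnj6*, 22 had *Drd2* (product 16.7). Within mice the correlation of *Drd2* was 0.18 with *Gabbr2*, 0.31 with *Kcnj6*, 0.02 with *Kcnj9*, and -0.17 with *Kcnj3*.

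The 3 genes most like each of the better expressed ones were taken from 8553 widely detected genes, by the correlation of log2(CPM + 1) over the 209 cells, centered within mice. For *Drd2* they were *Slc10a4*, a vesicular transporter-like gene (r = 0.63, positive in 8 of 8 mice), the second row of *Msi2* (0.57), and *Kcnd3*, an A-type potassium channel (0.56). For *Gabbr2* they were *Fmn2* (0.37), *Pou3f2* (0.35), and *Gps1* (0.33). For *Kcnj3* they were the semaphorin receptor *Nrp2* (0.38), *Sorcs3* (0.36), and the transcription factor *Bcl11a* (0.36). For *Kcnj9* they were *Igsf8* (0.32), *Ogdh* (0.31), and *Cnksr2* (0.29). *Igsf8* lies next to *Kcnj9* on chromosome 1, with 664 bases between the annotated genes.

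Of the signaling genes around the receptors, 46 in 8 lists, 40 could be tested between the *Aldh1a7* classes, and edgeR called 0 of them, with 11 of the 40 at an unadjusted p under 0.05, beside 11.0% of all genes; DESeq2 called *Rgs10* (adjusted p = 0.000278) and *Gng12* (adjusted p = 0.0219), and limma *Rgs10* (adjusted p = 0.0223) and *Rgs6* (adjusted p = 0.0103). edgeR also called 0 by *Slc6a3* class, by *Th* class, and by sex, with 11 of 38, 6 of 38, and 3 of 41 at an unadjusted p under 0.05, beside 8.87, 8.74, and 8.12% of all genes; limma called 0 in each, and DESeq2 *Gng12* by *Slc6a3* class, *Oprk1* by *Th* class, and 0 by sex. The RGS proteins speed the return of G proteins to rest. *Rgs10* was 0.938 ± 1.29 CPM in the *Aldh1a7+* and 15.6 ± 9.68 CPM in the *Aldh1a7-* sums (-3.82 ± 0.93, edgeR adjusted p = 0.0920), and *Rgs6* was 35.8 ± 23.0 against 13.2 ± 10.9 CPM (1.60 ± 0.57, edgeR adjusted p = 0.283). The median log2 difference between the *Aldh1a7* classes was -1.93 for the 3 GABA-B auxiliary subunits *Kctd8*, *Kctd12*, and *Kctd16* (edgeR called 0), -0.29 for 8 gamma subunits, 0.50 for 4 beta subunits, -0.09 for 5 Gi/o alpha subunits, 0.10 for 9 RGS genes, and 0.15 for 8 of 9 kinase, arrestin, and sorting genes, beside 0.00 over all genes tested.

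Within the lists, levels were again compared per kilobase of exon. *Gnb1* led the beta subunits (798 ± 353 CPM per kilobase, SD, n = 8), *Gng3* the gamma subunits (626 ± 102), and *Ncs1*, which codes for a calcium sensor that binds the D2 receptor, the trafficking genes (239.8 ± 85.7, with *Gprasp1* next at 119.9 ± 22.5), each beyond the spread between mice. Among Gi/o alpha subunits *Gnai1* was at 37.8 ± 9.74 and *Gnaz* at 29.8 ± 6.14 CPM per kilobase, and among RGS genes *Rgs4* was at 75.8 ± 43.9 and *Rgs2* at 48.8 ± 9.32; both pairs differed by less than the larger SD of the pair but by more than the smaller. Among GABA-B auxiliary subunits *Kctd12*, at 1.71 ± 1.29, and *Kctd16*, at 1.38 ± 1.25, differed by less than either SD. Of the other Gi/o-coupled receptors, *Oprl1*, the nociceptin receptor, was at 31.7 ± 9.80 and *Oprk1*, the kappa opioid receptor, at 24.3 ± 7.56 CPM per kilobase, also less than either SD apart. Among dopamine receptors other than *Drd2*, *Drd3* and *Drd4* had 0 reads, *Drd5* 29 reads, and *Drd1a* (*Drd1*) 333 reads in 209 cells.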

How the data were processed

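Single-cell RNA-seq counts of 384 cells from 8 mice were used as the authors deposited them: whole-number counts of reads per gene, not normalized. The authors' steps were Trimmomatic (0.3.2), TopHat2 (2.1.1) on GRCm38 (mm10), and featureCounts (1.5.0-p3) with the RefSeq annotation, without reads that aligned to several genes and without wells seen to hold doublets. The kit does not mark strand, and *Drd2* and *Gabbr2* overlap noncoding genes. Of 47082 rows, 5721 without a count in every cell were left out, as were spike-in and transgene rows (0.00325% of reads).

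The 7 genes, 8 pathway lists, and 9 marker lists were chosen with earlier results of these data known. Other named genes are those the splits rest on, list genes that passed the threshold or led their list per kilobase, markers beside a result, and the 3 genes most correlated with each of the 7 that averaged at least 10 CPM; list genes that only DESeq2 or limma called, *Ddx39b*, *Tubb5*, and the genes next to a leader were chosen after their values were seen. Cells needed 500000 reads and were positive from 10 reads. Sums of counts per mouse and class (3 cells or more) went into edgeR (4.0.16; R 4.3.3) with TMM scaling, filterByExpr, the quasi-likelihood test, p-values adjusted after Benjamini-Hochberg (threshold 0.05); the SE is the log2 fold change divided by the square root of F. DESeq2 (1.42.0), limma (3.58.1), other cells, cutoffs, and machines, and each mouse left out were alternatives. Lanes, summed rows of 1 symbol, and the block within cells with *Th* and *Slc6a3* were added after seeing the data, and the breadth limit, on how many of the commonly seen genes a cell had reads for, was defined after the files were read. Both classes come from the same animals, so the mouse pairs them (correlations of their deviations 0.0412 to 0.206 for *Aldh1a7*); the block was an alternative. The tests were checked on simulated data. Positions are from RefSeq on GRCm38.p6 and exon lengths from GENCODE. Metrics without cell names were not used.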

Additional observations from a re-analysis of the deposited data

Results flagged for a closer look

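Of 35 groups of 4 to 10 sums, 8 (22.9%) held a mouse far from the others by Dixon's test, where chance flags about 1 in 20; the groups share mice and genes. Mouse 5 was high for *Kcnj6*: 28.3 CPM in *Aldh1a7+* cells (others 0 to 10.9), 24.5 CPM in the upper class by *Slc6a3* (0.267 to 7.22), 28.4 CPM in the lower class by *Th* (0 to 6.58), and 19.4 CPM among males (0.365 to 5.66), with nearly all its reads on the first row. It was also high for *Kcnj3* in the upper class by *Th* (23.8 CPM, others 0.105 to 9.56). Mouse 6 was high for *Kcnj9* in the lower class by *Slc6a3* (76.9 CPM, others 13.3 to 22.9) and by *Th* (63.4 CPM, others 11.3 to 35.9). Mouse 2 was high for *Drd2* in the upper class by *Slc6a3* (217 CPM, others 95.2 to 137). The second row named *Kcnj6*, which was used only where both rows were summed, reached 10 reads in 17 cells.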

How the results depend on the processing

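Over all comparisons, 509 values of the 7 genes were recomputed: 474 kept their direction and side of the threshold, 6 newly passed it (*Drd2* and *Kcnj3*, named above), and 29 changed sign; the causes were not tested. With the mouse as a block, the *Aldh1a7* classes gave no call among the 7 genes and the count of genes called was 44. Genes called between the *Aldh1a7* classes (52) were 338 by DESeq2, 184 by limma, 24 in cells with *Th* and *Slc6a3* (27 with the block), 129 from 100000 reads, 81 after thinning, 0 on the second machine, 15 with at least 5 cells, 14 from 1 read of *Aldh1a7*, 1 and 21 in lanes 1 and 2, and 14 to 87 without 1 mouse. By *Slc6a3* class (1) they were 145 by DESeq2, 11 with the block, 2 without the filter, 2 past the breadth limit, 2 after thinning, 0 in cells with *Th* and *Slc6a3*, 0 from 100000 reads, 5 and 0 on the machines, and 1 to 20 without 1 mouse. By *Th* class (0) they were 79 by DESeq2, 1 without the filter, 3 with the block, 1 in cells with *Th* and *Slc6a3*, 32 from 100000 reads, 3 on the first machine, and 0 to 11 without 1 mouse. By sex (5) they were 190 by DESeq2, 24 by limma, and 0 on the first machine. In the joint model the *Aldh1a7* count (51) was 320 by DESeq2, 210 by limma, 15 with the block, 119 from 100000 reads, 81 after thinning, 13 and 1 on the machines, 20 with at least 5 cells, 27 and 87 from 1 and 50 reads of *Aldh1a7*, and 21 to 46 without 1 mouse. The *Slc6a3* count (3) was 87 by DESeq2, 1 by limma, 21 with the block, 0 from 100000 reads, 0 on the second machine, and 1 to 6 without 1 mouse.

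In cells with *Th* and *Slc6a3*, *Kcnj9* became 0.11 by *Slc6a3*, 0.0819 by *Th*, and 0.65 by sex, and *Gabbr2* -0.17, -0.64, and -0.18. By *Slc6a3*, *Gabbr2* was -0.0445 with the block and -0.10 past the breadth limit. By *Th*, *Kcnj6* was 0.34 by limma, 0.46 with the block, and 1.43 on the first machine, and *Gabbr2* -0.18 on the second. By sex, *Kcnj9* was 0.0419 from 100000 reads and 0.37 on the first machine. In the joint model, the *Slc6a3* term was -0.0757 for *Drd2* and 0.65 for *Kcnj3* on the second machine, and 0.0037 for *Kcnj3* after thinning. Without 1 mouse, *Kcnj9* ran from -0.48 to 0.40 and *Gabbr2* from -0.25 to 0.23 by *Slc6a3*, *Kcnj6* from -0.49 to 0.74 and *Gabbr2* from -0.0718 to 0.28 by *Th*, *Kcnj9* from -0.39 to 0.65 and *Gabbr2* from -0.17 to 0.23 by sex, and *Kcnj3* from -0.51 to 0.16 in the joint model. The part of *Kcnj9* differed by -16.6 points after thinning, -9.67 as a mean over cells, -16.9 and -16.3 from 1 and 50 reads of *Aldh1a7*, none with an exact permutation p under 0.05, and -20.4 to -12.8 without 1 mouse. The median of all genes moved from 0.00 to 0.10 between the *Aldh1a7* classes and from -0.05 to 0.19 by *Slc6a3* with limma. Few mice and few cells per class limit these tests, and reads without molecular identifiers carry amplification error.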
